A study of Mus musculus with 1528 samples.

Results

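Signals from the cytokine TNF enter a cell through 2 receptors, and the genes described here are those receptors and the proteins that gather on their tails: *Tnfrsf1a*, *Tnfrsf1b*, *Tradd*, *Ripk1*, *Traf1*, *Traf2*, *Birc2*, *Birc3*, *Tnfaip3* and *Cflar*. They were chosen by name, as 10 of the 55421 genes of a table of fragment counts, and each of the 10 was found once in that table. The table holds Smart-seq2 libraries of single bone marrow-derived macrophages (BMDMs), which are macrophages grown from bone marrow in a dish with the growth factor M-CSF, from 2 wild-type C57BL/6 mice. Cells of both groups received IL4 and IL13, the cytokines that drive the M2 type of macrophage, and 1 group received TNF as well, with each cytokine at 10 ng/ml for 24 h; the groups are called IL4+IL13 and IL4+IL13+TNF. Cells that passed a live/dead stain were sorted into 4 plates, 2 per mouse, and every plate held both groups of 1 mouse in separate rows of wells, so treatment and position on the plate cannot be told apart. The paper's methods speak of male C57BL/6J mice, and the age was not given in the sources used here. No group without cytokines and no group with TNF alone was analysed here.

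As background, TNFR1 (encoded by *Tnfrsf1a*) is carried by most cells and has a death domain, on which the adaptor TRADD and the kinase RIPK1 assemble after TNF binds. TRADD then brings in TRAF2 and the ubiquitin ligases cIAP1 and cIAP2 (*Birc2* and *Birc3*), whose ubiquitin chains on RIPK1 start the NF-κB pathway, while TNFR2 (*Tnfrsf1b*), abundant on blood and immune cells, lacks a death domain and binds TRAF2 directly. NF-κB in turn switches on genes that limit the signal: *Tnfaip3* encodes A20, an enzyme that edits ubiquitin chains, *Birc3* a second ligase, *Traf1* a partner of TRAF2, and *Cflar* encodes cFLIP, which holds back caspase-8.

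After wells of poor quality were removed, 1386 of 1524 cells remained, 357 (mouse 1) and 333 (mouse 2) without TNF, 347 and 349 with it, with 200235 to 6122892 fragments per cell (median 472319). Mice, not cells, served as replicates: the counts of all kept cells of 1 mouse and treatment were added up, given as CPM (counts scaled to a common library size by TMM, a method of edgeR), and tested with the quasi-likelihood test of edgeR, p-values being adjusted by Benjamini-Hochberg over 17034 genes. The series' description names 2 separate mice and the sample titles carry a number, 1 or 2, which was taken as the mouse; no label writes out that the same number under both treatments is the same animal, but those samples shared their plates. The study also calls them independent experiments, so an effect of the animal and of its plates cannot be told apart. A second edgeR fit therefore has a term for this number (the mouse block). An exact permutation test of 2 values against 2 cannot give a two-sided p below 0.333. The 6 macrophage markers summed to 15147 to 26995 CPM in the 4 sums. Most of this was the highest single marker, with 11701 and 13210 CPM without TNF (mice 1 and 2) and 23820 and 23008 CPM with it. The lowest of the 6 had 70 and 69.2 CPM without TNF and 19.2 and 20.1 CPM with it. Lists for T cells, B cells, fibroblasts, and mast cells or basophils stayed at or below 0.732 CPM each, the neutrophil list at or below 5.3 and the dendritic cell list at or below 13.6, and *Ly6g*, a defining neutrophil marker, was at 0 in 2 of the 4 sums. Within a sum, fewer cells with a transcript and less of it per cell cannot be told apart, and shares of cells are therefore given beside the levels.

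The 10 genes fell into genes that were several-fold higher with TNF and genes that differed little. *Tnfaip3*, *Traf1* and *Birc3* were 5.16, 5.01 and 3.37 times as high with IL4+IL13+TNF as with IL4+IL13, and these 3 rose past the threshold when the mouse was a block. *Traf2* was 2.18 times as high and *Cflar* 1.5 times, whereas both receptors, *Tradd*, *Ripk1* and *Birc2* differed by 0.766 to 1.34 times. With treatment only, 0 of the 10 genes passed an adjusted p of 0.05 by edgeR, where 0.00587% of all tested genes did, and 5 of the 10 had an unadjusted p under 0.05, as did 8.1% of all tested genes. With the mouse as a block, 3 of 10 were called higher and 0 lower; of all tested genes 1.94% were called higher and 3.82% in either direction. DESeq2 called 4 of 10 higher, *Traf2* being the fourth, against 1.79% of all tested genes. The median log2 fold change of the 10 genes was 0.50, and that of all genes tested was 0.00. The 10 genes were chosen with earlier results of these data known, so these comparisons with all genes are descriptions.

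**Figure D1:**
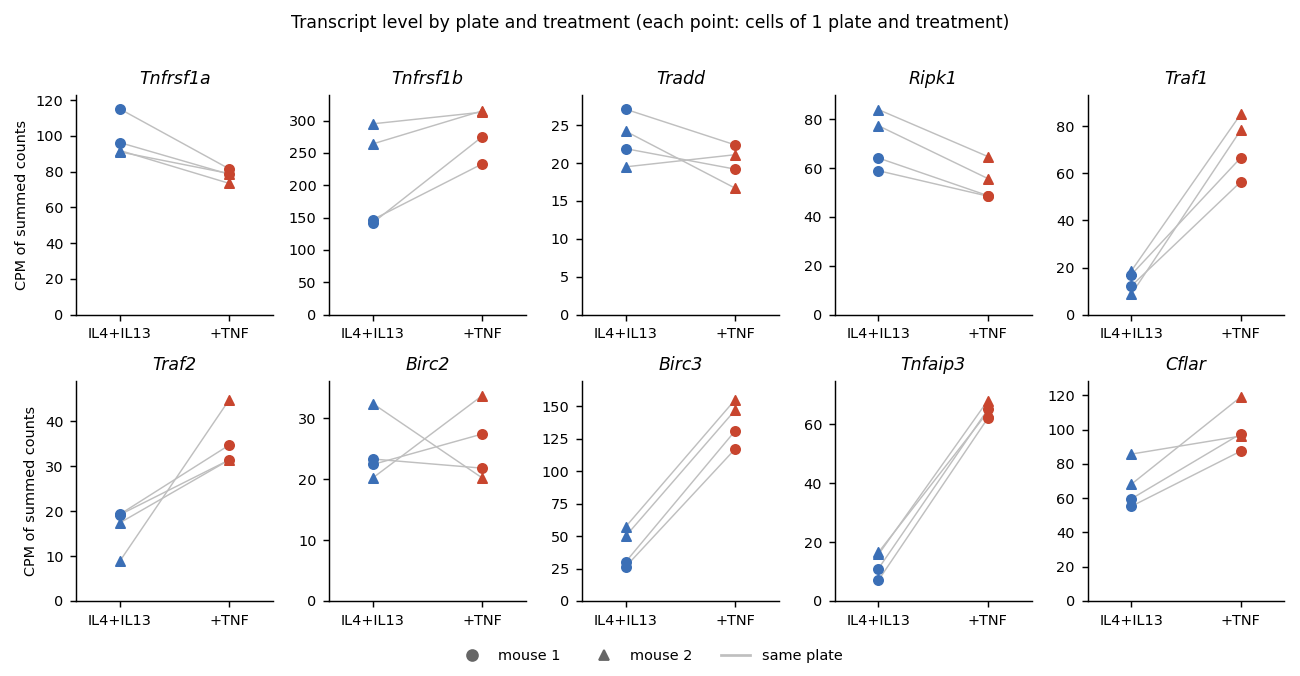
Level of each transcript in CPM (vertical axes, from 0) in the summed cells of each plate and treatment, with circles for mouse 1, triangles for mouse 2 and grey lines joining the treatments of 1 plate. *Traf1*, *Birc3* and *Tnfaip3* lie far apart between treatments on all 4 plates, while *Birc2* and *Tradd* overlap.

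*Tnfaip3* (ENSMUSG00000019850, chr10:19000910-19015657 of mm10, minus strand) showed the largest log2 fold change of the 10. Its level without TNF was 9 CPM in mouse 1 and 16.1 CPM in mouse 2, and with TNF it was 63.4 and 66.1 CPM. The treatments were thus well apart, and the mice differed more from each other without TNF than with it. The log2 fold change was 2.37 (standard error 0.33, adjusted p = 0.197 by edgeR), and 2.43 with the mouse as a block (standard error 0.22, adjusted p = 0.0124). On plates 2 to 5 the log2 ratio was 2.52, 3.05, 1.92 and 2.07.

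*Traf1* (ENSMUSG00000026875, chr2:34941750-34961772, minus strand) stood at 14.6 and 13.9 CPM without TNF, in the same order of mice, and at 61 and 81.7 CPM with it. Here the mice agreed closely without TNF and spread with it, to a mean of 71.4 ± 14.7 CPM (SD, n = 2). The log2 fold change of 2.32 (standard error 0.23) had an adjusted p of 0.135 by edgeR with treatment only and of 0.00798 with the block. Plate 5 gave the largest within-plate log2 ratio, 3.1, and plate 2 the smallest, 1.93.

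*Birc3* (ENSMUSG00000032000, chr9:7848699-7873186, minus strand) had 28.4 and 53 CPM without TNF and 123 and 151 CPM with it. No plate with TNF came down to the level of any plate without it. Its log2 fold change was 1.75 (standard error 0.35, adjusted p = 0.282 by edgeR) and, with the block, 1.81 (standard error 0.18, adjusted p = 0.0139). The rise was 2.1 and 2.12 on the log2 scale on the plates of mouse 1 and 1.55 and 1.43 on those of mouse 2.

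DNA at an annotated start of each of these 3 genes is shown because they rose together. The sequences are RefSeq promoter entries of GRCm38.p6, the assembly that mm10 is made from, printed 5′ to 3′ on the gene's strand, and 9 of the 10 genes had at least 1 entry (all but *Tradd*). The 250 bases before each start were searched on both strands for the kappaB consensus, the 10-base pattern to which NF-κB dimers bind. A match was found for 1 of the 9 genes, *Tnfaip3*, and for 4.46% of all 27025 genes in the promoter table. The *Tnfaip3* window held 2 matches, whose letters are in capitals within their surroundings. The start of this entry lies inside the counted gene, which reaches chr10:19015657. Both printed *Tnfaip3* stretches therefore lie within the span of the counted gene and not in front of it. The first begins 125 bases before the start, and neither end of its printed stretch lies in a counted exon of the gene. The second begins 12 bases before the start, and at least 1 end of its printed stretch lies in a counted exon. Whether the matched letters themselves lie in an exon was not checked. Another promoter entry of *Tnfaip3* held no match. The windows of *Traf1* and *Birc3* are printed as far as they lie outside annotated exons and held no match, which says only that no such letters lie there.
Tnfaip3, chr10:19015516-19015545, minus strand: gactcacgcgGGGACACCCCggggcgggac
Tnfaip3, chr10:19015403-19015432, minus strand: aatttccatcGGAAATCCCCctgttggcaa
Traf1, chr2:34961773-34962022, minus strand: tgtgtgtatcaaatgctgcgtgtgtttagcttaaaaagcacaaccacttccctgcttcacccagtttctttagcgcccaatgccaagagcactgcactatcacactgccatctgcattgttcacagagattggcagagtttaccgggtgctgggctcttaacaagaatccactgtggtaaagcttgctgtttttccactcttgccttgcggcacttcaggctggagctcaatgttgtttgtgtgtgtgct
Birc3, chr9:7873187-7873420, minus strand: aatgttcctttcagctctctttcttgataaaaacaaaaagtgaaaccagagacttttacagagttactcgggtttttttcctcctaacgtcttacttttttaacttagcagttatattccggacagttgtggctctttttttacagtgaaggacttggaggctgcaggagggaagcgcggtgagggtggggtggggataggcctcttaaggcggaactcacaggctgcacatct

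*Traf2* (ENSMUSG00000026942, chr2:25517982-25546940, minus strand), the adaptor through which both receptors reach the cIAP ligases, had 19.3 and 13.3 CPM in IL4+IL13 cells and 33 and 38.2 CPM once TNF was present. Every plate was higher with TNF, but plate 5 stood apart with a log2 ratio of 2.27 against 0.7 to 0.83 on the other plates. The log2 fold change of 1.13 (standard error 0.27) did not pass by edgeR, with an adjusted p of 0.359 with treatment only and 0.0603 with the block; DESeq2 gave 0.0109.

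*Cflar* (ENSMUSG00000026031, chr1:58711508-58758884, plus strand) had 57.6 and 76 CPM without TNF and 92.1 and 108 CPM with it. Its log2 fold change was 0.58 (standard error 0.22), and edgeR gave an adjusted p of 0.598 with treatment only and 0.0642 with the block. The treatments did not overlap by plate, although the highest plate without TNF, 85.7 CPM, came close to the lowest with it, 87.4 CPM.

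The 2 receptors gave opposite signs. *Tnfrsf1a* (ENSMUSG00000030341, chr6:125349362-125362484, plus strand) had 106 and 90.9 CPM without TNF and 80.3 and 76.2 CPM with it. In the edgeR fit with the mouse block its log2 fold change was −0.33 (standard error 0.11, adjusted p = 0.187, and 0.755 with treatment only). It was lower with TNF on 4 of 4 plates (log2 ratios −0.29, −0.49, −0.32 and −0.21 on plates 2 to 5). *Tnfrsf1b* (ENSMUSG00000028599, chr4:145213463-145246870, minus strand) had 145 and 277 CPM without TNF and 252 and 315 CPM with it. Without TNF the mice differed from each other by more than either did between treatments, and the treatments overlapped. The log2 ratio between treatments was 0.79 in mouse 1 and 0.18 in mouse 2, and with the block the fitted value was 0.49 (standard error 0.16, adjusted p = 0.177 by edgeR, and 0.865 with treatment only). With treatment only it was 0.03 without the IL4+IL13 cells of mouse 1 and 0.97 without those of mouse 2.

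The proximal adaptor *Tradd* (ENSMUSG00000031887, chr8:105258286-105264609, minus strand) had 24.6 and 21.8 CPM without TNF and 20.7 and 19 CPM with it. *Ripk1* (ENSMUSG00000021408, chr13:34002363-34037147, plus strand) had 61.8 and 80.3 CPM against 48.7 and 60.2 CPM, lower with TNF within both mice, although the sums by plate overlapped between treatments (58.9 CPM without TNF on plate 2 and 64.7 CPM with it on plate 4). Its exons share 241 bases with *Serpinb6a* on the opposite strand and 511 with *Gm17084* on the same strand, and counting did not use the strand. *Birc2* (ENSMUSG00000057367, chr9:7818227-7837064, minus strand) had 22.9 and 25.8 CPM against 25 and 26.9 CPM. None of the 3 passed the threshold with the block either, with adjusted p of 0.467, 0.146 and 0.77 by edgeR and log2 fold changes of −0.23, −0.38 and 0.09 (standard errors 0.15, 0.11 and 0.14); with treatment only the adjusted p were 0.888, 0.783 and 0.968. For *Birc2* the plates of mouse 2 disagreed, with log2 ratios of 0.73 and −0.67.

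Per kilobase of exon, a scale for setting genes beside each other, the receptors were the most abundant of the 10. The length is that of all annotated exons of a gene, from 1866 bases for *Tradd* to 12669 for *Cflar*. It need not be the length of the transcripts made in these cells, and the order of genes depends on it. With IL4+IL13 the order began with *Tnfrsf1b* at 55.3 ± 24.4 CPM per kilobase (SD, n = 2 mice) and *Tnfrsf1a* at 38 ± 4.12, whose difference was within the spread of *Tnfrsf1b*. *Tradd* followed at 12.4 ± 1.04, then *Ripk1* at 8.52 ± 1.57 and *Birc3* at 8.12 ± 3.48, which did not differ beyond their spread. *Birc2* (5.32 ± 0.441) and *Cflar* (5.27 ± 1.03) were alike in level, *Traf2* stood at 3.2 ± 0.829, and *Tnfaip3* (1.74 ± 0.695) and *Traf1* (1.62 ± 0.0621) closed the order. With TNF *Birc3* was next after the receptors at 27.4 ± 3.9, close to *Tnfrsf1a* at 30.2 ± 1.11. *Tnfrsf1b* led at 74.2 ± 11.6, and *Tnfaip3* and *Traf1*, last without TNF, lay at 8.97 ± 0.265 and 8.09 ± 1.66, above *Traf2*, *Ripk1* and *Birc2* at 6.98 ± 0.73, 6.53 ± 0.968 and 5.66 ± 0.29.

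For pairs of genes that encode related proteins, the ratio of the transcripts was higher with TNF within each mouse. The ratio of *Birc3* to *Birc2* per kilobase, free of any scaling between libraries, was 1.13 (mouse 1) and 1.88 (mouse 2) without TNF and 4.51 and 5.13 with it. On the log2 scale the ratio was higher with TNF by 1.72 ± 0.39 (SD, n = 2 mice; 0.82 to 2.22 over the 4 plates; exact permutation p = 0.333, the smallest possible). Per kilobase, *Traf1* was below *Traf2* without TNF, at 0.439 and 0.602 of its level, and slightly above it with TNF, at 1.07 and 1.24. Which gene of a pair is higher depends on the exon lengths used, whereas the difference between treatments does not. The log2 ratio of *Traf1* to *Traf2* was higher with TNF by 1.16 ± 0.18 (0.84 to 1.49 over the plates, exact permutation p = 0.333). For the receptors, *Tnfrsf1b* to *Tnfrsf1a* was 0.93 and 2.07 without TNF and 2.13 and 2.8 with it, higher by 0.82 ± 0.54 (0.29 to 1.25 over the plates; exact permutation p = 0.333), and mouse 2 without TNF lay next to mouse 1 with TNF.

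**Figure D2:**
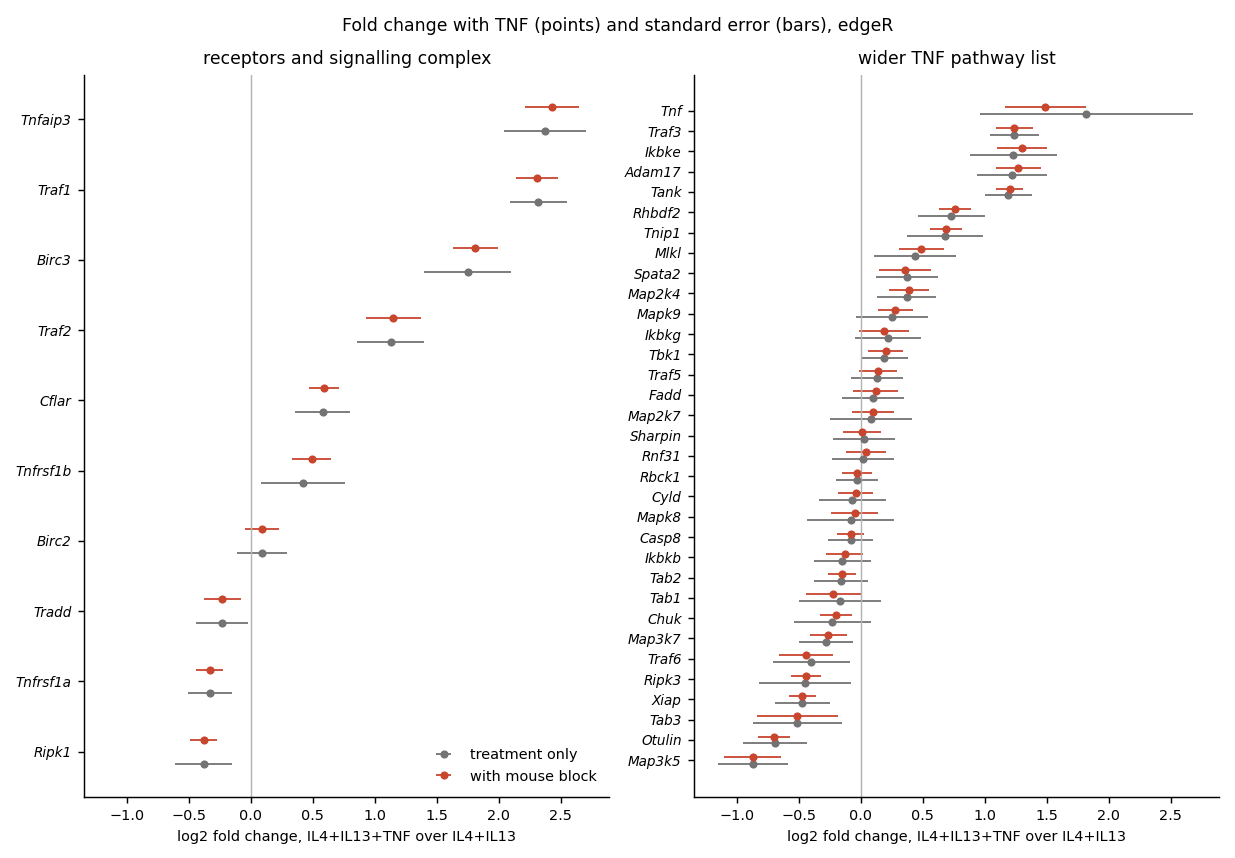
Log2 fold change of IL4+IL13+TNF over IL4+IL13 (horizontal axes) with its standard error, for the 10 genes on the left and the 33 tested genes of the wider pathway on the right, in grey for treatment only and in red with the mouse as a block. *Tnfaip3*, *Traf1* and *Birc3* lie furthest to the right of the 10 genes, and most genes of the wider pathway lie between −0.5 and 0.5.

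Sums over cells can hide how many cells carry a transcript, so every cell was thinned to 339000 fragments, where 1 fragment is worth 2.95 CPM; this left 1250 cells. At least 1 *Tnfaip3* fragment was found in 19% (mouse 1) and 25.9% (mouse 2) of cells without TNF and in 68% and 66% with it. For *Traf1* the shares were 28.9% and 30.4% without TNF and 65% and 66% with it. *Birc3* was already in 47% and 61.8% of cells without TNF and reached 91.1% and 95.1%. These 3 transcripts thus were in 44.6, 35.8 and 38.7 percentage points more cells with TNF (means over mice; without thinning the mean shares went from 25.6% to 69.1%, from 31.9% to 68.2% and from 58.9% to 93.2%). *Traf2* was in 29.9% ± 9.29 and 52.1% ± 4.31 of cells without and with TNF, and *Cflar* in 73.7% ± 0.649 and 86.2% ± 0.368 (SD, n = 2 mice). The shares depend on the cutoff. At 5 fragments or more, cells without TNF had *Tnfaip3* in 9.34% and 11%, *Traf1* in 17.2% and 14.2%, and *Birc3* in 32.2% and 38.8%. With TNF these were 56.1% and 48.7%, 52.1% and 54.2%, and 80.9% and 85.9%. *Clec4e*, a gene far higher with TNF, was in 44.9% and 59.2% of cells without TNF at 1 fragment and in 16.9% and 10.4% at 5. At 1 fragment the exact permutation p was 0.333, the smallest possible, for *Tnfaip3*, *Traf1*, *Birc3*, *Traf2* and *Cflar*. It was also 0.333 for *Ripk1* (−3.95 points) and *Birc2* (4.82 points), so this p does not set the 5 genes apart.

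The receptors were in most cells of both treatments. *Tnfrsf1b* was found in 93.1% to 97.7% of cells over the 4 sets and *Tnfrsf1a* in 77.1% to 89.2%. Both were found together in 83.1% and 81.2% of cells without TNF and in 83.5% and 74.8% with it. Cells with neither receptor transcript numbered 3 of 332 and 2 of 309 without TNF, and 2 of 303 and 0 of 306 with TNF; a count of 0 allows a share of up to 0.98% (3 counts of the total, counting error only). In mouse 1, 45.2% of cells had more *Tnfrsf1b* than *Tnfrsf1a* per kilobase without TNF and 70% with TNF, and in mouse 2 the shares were 69.9% and 77.5%. *Tradd* was found in 63% and 52.1% of cells without TNF and 62% and 54.9% with it, *Ripk1* in 81.6% and 79.9% against 73.9% and 79.7%, and *Birc2* in 31.9% and 33% against 40.6% and 34%.

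**Figure D3:**
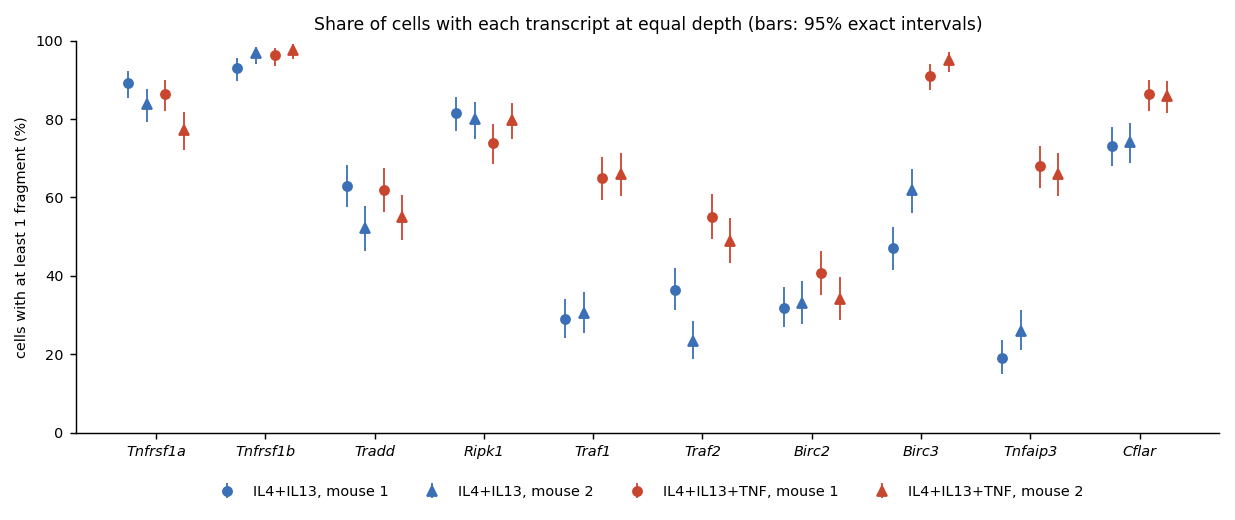
Percent of cells (vertical axis) in which each transcript had 1 fragment or more at equal depth, for IL4+IL13 in blue and IL4+IL13+TNF in red, circles for mouse 1 and triangles for mouse 2, with 95% exact Clopper-Pearson intervals that cover counting error only. *Traf1*, *Birc3* and *Tnfaip3* separate by treatment in both mice, and *Tnfrsf1b* stays above 93% throughout.

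How evenly cells carried these transcripts was described in all kept cells without thinning. Without TNF, the top 5% of cells held 78.7% and 71.7% of all *Tnfaip3* CPM summed over cells in mouse 1 and mouse 2, and 53.8% and 68.6% of *Traf1*. With TNF the top 5% held 26.1% and 30.7% of *Tnfaip3* and 26.8% and 41% of *Traf1*. What the top 5% hold depends on the level and on how many cells carry a transcript. These values are therefore no result separate from the levels and shares above, also where genes of unlike level are set beside each other. The top 5% of cells held less of *Tnfrsf1b*, 22.9% and 20.1% without TNF and 18.8% and 17% with it, and about as much of *Tnfrsf1a*, 18.3% and 21.6% and then 19.2% and 21.4%. The median cell had 0 CPM of *Tnfaip3* and *Traf1* without TNF in both mice, and 28 and 8.24 CPM of *Tnfaip3* and 20.2 and 20.3 CPM of *Traf1* with TNF. For *Birc3* the median cell went from 1.68 and 4.16 CPM to 89.4 and 119 CPM.

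Counted together in single cells, the 3 genes were rarely all present without TNF. They are the 3 of the 10 genes that rose most, so more cells with all 3 follow from the shares of each gene. The share expected from those single shares was not computed, and the intervals cover counting error only, not the spread between mice. Cells with a fragment of each of *Traf1*, *Birc3* and *Tnfaip3* made up 3.01% in mouse 1 (95% exact interval 1.45 to 5.47) and 7.44% in mouse 2 (4.78 to 11) without TNF, and 44.6% (38.9 to 50.3) and 40.5% (35 to 46.3) with it. Cells with none of the 3 made up 32.2% and 22% without TNF and 2.64% and 0.327% with it. Within a treatment and mouse, however, the levels of the 10 genes were nearly unrelated across cells: the mean Spearman correlation over the 4 sets ranged from −0.048 to 0.095 over the 45 pairs of genes (median 0.008), with *Traf1* and *Birc3* at the top. In sparse counts such weak correlations are no finding.

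**Figure D4:**
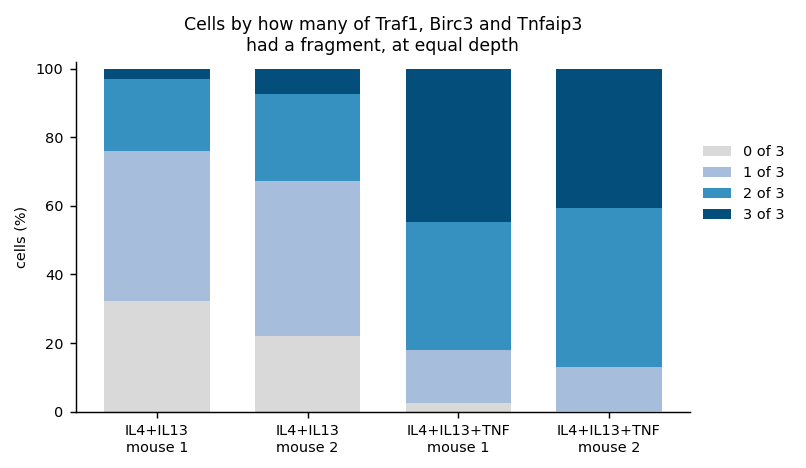
Share of cells (vertical axis, percent) in which 0, 1, 2 or 3 of *Traf1*, *Birc3* and *Tnfaip3* had at least 1 fragment at equal depth, for each treatment and mouse. Cells with all 3 make up 3.01% and 7.44% of the bars without TNF and 44.6% and 40.5% of those with TNF.

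Whether cells with more receptor transcript responded more strongly was described with a response score, the mean log2(CPM + 1) at equal depth of *Clec4e*, *Nfkbia*, *Nfkbie*, *Icam1*, *Sod2*, *Tnfaip2*, *Ccl5* and *Saa3*, a list chosen because TNF moves these genes. *Clec4e*, which encodes the receptor Mincle, was the 1 gene called with treatment only (19.2 and 21.7 CPM without and 665 and 723 CPM with TNF, log2 fold change 5.09, standard error 0.19, adjusted p = 0.0203 by edgeR and 0.000706 with the block). The score averaged 2.79 and 2.71 without TNF and 5.67 and 5.49 with it. Its SD over cells was 0.76 and 0.86 without TNF and 1.30 and 1.35 with it. Without TNF *Saa3* and *Ccl5* had means of 1.13 and 2.16 CPM, less than 1 fragment at equal depth (2.95 CPM). A relation to the receptors could thus show less in IL4+IL13 cells, which limits them as a background. In IL4+IL13 cells the Spearman correlation of the score with *Tnfrsf1a* was −0.006 over 332 cells of mouse 1 and −0.025 over 309 cells of mouse 2, and on plates 2 to 5 it was 0.01, −0.01, 0.073 and −0.149. In IL4+IL13+TNF cells the correlation was 0.095 over 303 cells of mouse 1 and 0.314 over 306 cells of mouse 2, and on plates 2 to 5 it was 0.062, 0.11, 0.318 and 0.286. The relation was thus larger in mouse 2 than in mouse 1 on both of its plates, and the plate values of mouse 1 were smaller in size than the −0.149 of plate 5 without TNF. Among cells with at least 1 *Tnfrsf1a* fragment it was −0.02 (262 cells) in mouse 1 and 0.203 (236 cells) in mouse 2.

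The number of genes detected at equal depth moved with both sides of this relation. In IL4+IL13+TNF cells it correlated with *Tnfrsf1a* at 0.174 and 0.183 and with the response score at 0.222 and 0.299 in mouse 1 and mouse 2. Given the number of genes detected, a measure added after seeing the data, the correlation of *Tnfrsf1a* and the score was 0.058 and 0.276. Cells of 1 set share their libraries' depth and plates, and all these correlations are descriptions.

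At the low end, IL4+IL13+TNF cells without a *Tnfrsf1a* fragment scored 5.07 (41 cells) and 4.83 (70 cells), and cells with one scored 5.77 (262 cells) and 5.68 (236 cells) in mouse 1 and mouse 2. The differences were 0.70 and 0.85, and single cells of these sets varied with an SD of 1.3 and 1.35. Cells without the fragment still lay far above IL4+IL13 cells, where the differences were 0.03 and −0.19. A missing fragment in a single-cell library does not show that a cell lacked the transcript.

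**Figure D5:**
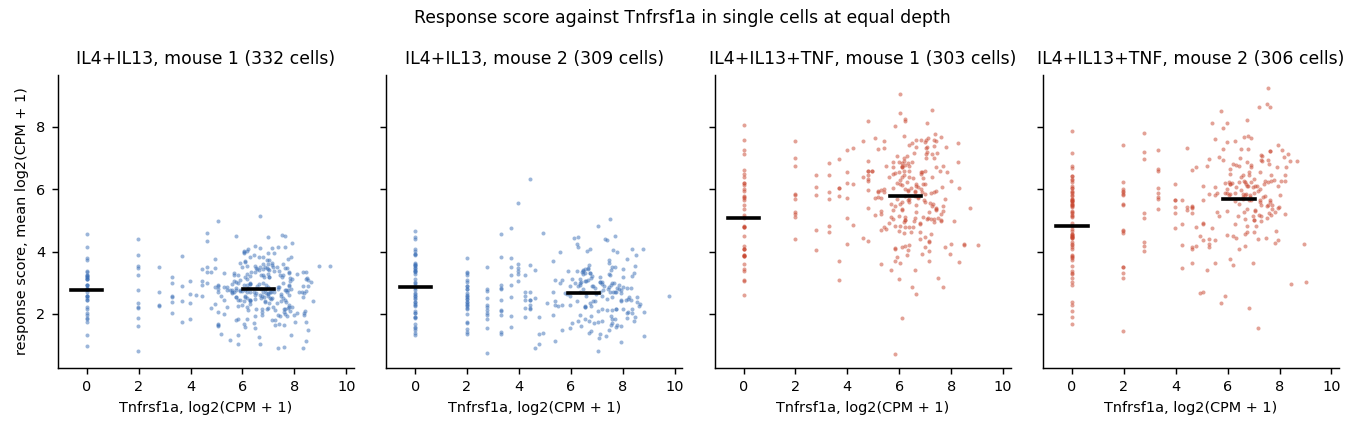
Response score (vertical axis, mean log2(CPM + 1) of 8 genes) against *Tnfrsf1a* (horizontal axis, log2(CPM + 1)) for each cell at equal depth, by treatment and mouse. Black lines mark the mean score of cells without and with a *Tnfrsf1a* fragment, 5.07 and 5.77 in mouse 1 and 4.83 and 5.68 in mouse 2 with IL4+IL13+TNF.

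For *Tnfrsf1b* the correlation with the response score in IL4+IL13+TNF cells was −0.004 in mouse 1 and 0.171 in mouse 2, and −0.017 and −0.016 without TNF. Its plates in mouse 1 disagreed in sign, at −0.125 and 0.072. Against the M2 score, the same mean over *Retnla*, *Clec10a*, *Mgl2*, *Mrc1*, *Il10* and *Apoe*, *Tnfrsf1b* gave 0.002 and −0.219 without TNF and −0.116 and −0.129 with TNF, and *Tnfrsf1a* gave 0.029 to 0.049 in the 4 sets. In mouse 2 without TNF, the 103 cells with the most *Tnfrsf1b* (median 504 CPM) had a mean M2 score of 5.11 and the 103 with the least (median 35.4 CPM) 5.78, whereas in mouse 1 the scores of 110 cells each were 4.68 and 4.73. The Spearman correlations of either receptor with *Traf1*, *Birc3* and *Tnfaip3* in IL4+IL13+TNF cells ran from −0.081 to 0.13.

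Other states of the cells were set beside the 10 genes. Summed over 6 genes, cycling transcripts had 802 and 507 CPM without TNF and 452 and 299 CPM with it, the 5 MHC class II genes 862 and 1689 CPM against 2238 and 3786 CPM, and 6 interferon-response genes 668 and 510 CPM against 514 and 404 CPM. Across cells, the mean Spearman correlation over the 4 sets ranged from −0.088 (*Tnfrsf1b*) to 0.115 (*Traf2*) with the cycling score, from −0.041 (*Ripk1*) to 0.161 (*Traf1*) with the MHC class II score, and from −0.07 (*Traf1*) to 0.08 (*Tnfrsf1a*) with the interferon score. The part of these states in the differences between treatments was not tested.

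Among 9007 genes found in at least 25% of cells in each set, those whose level across cells was most like that of *Tnfrsf1b* were *Itgb2* (the β2 integrin chain; mean Spearman correlation over the 4 sets 0.281), *Sdc1* (0.265), *Ctss* (the lysosomal protease cathepsin S; 0.256), *Anxa1* (0.255) and *Prkcd* (0.25), where the median gene had −0.011. For *Tnfrsf1a* the leading genes were *Msr1* (a scavenger receptor) and *Mark2* at 0.134 each, *Gm11196* and *Abce1* at 0.132 each, and *Tmem214* at 0.125, against a median of 0.014. These are the highest of 9007 values, and how high unrelated genes would reach was not computed. Single sets ran from 0.021 to 0.224 for *Tmem214* and from 0.067 to 0.204 for *Mark2*. For *Itgb2* they ran from 0.173 to 0.339 and for *Prkcd* from 0.172 to 0.406. The leading values were lower for *Tnfrsf1a* than for *Tnfrsf1b*, and no gene followed either receptor closely.

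Beyond the complex, 35 genes of the wider pathway were listed by role, of which 33 passed the filter on low counts (*Lta* and *Ltb*, encoding lymphotoxins, did not). With the mouse as a block 5 were called higher and 0 lower, where 1.94% of all tested genes were called higher and 3.82% in either direction. With treatment only 0 were called, where 0.00587% of all tested genes were. In that fit 7 had an unadjusted p under 0.05, beside 8.1% of all genes. DESeq2 called 4 higher, all of the 5 but *Rhbdf2* (adjusted p = 0.291), where it called 1.79% of all tested genes higher. With treatment only the adjusted p of the 5 in edgeR lay between 0.21 and 0.582. The median log2 fold change of the 33 was 0.03. The wider list, too, was chosen with earlier results of these data known. *Adam17*, the protease that sheds TNF and both receptors from the cell surface, had 131 and 222 CPM without TNF and 404 and 421 CPM with it (log2 fold change with the block 1.27, standard error 0.18, adjusted p = 0.0302 by edgeR). *Rhbdf2*, whose product iRhom2 carries that protease to the surface, had 41.9 and 63.5 CPM against 78.3 and 96.8 CPM (0.76, standard error 0.13, adjusted p = 0.048 with the block).

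*Tank* and *Ikbke*, an adaptor and a kinase of the TBK1 branch, made up the IKK-related part of those called. *Tank* had 79.9 and 98.2 CPM without TNF and 191 and 217 CPM with it (adjusted p = 0.0115 with the block), and *Ikbke* 32.6 and 62.9 CPM against 104 and 119 CPM (adjusted p = 0.036 with the block, both by edgeR). *Traf3*, an adaptor that works with TRAF2 and the cIAPs, had 13.5 and 14 CPM against 32.5 and 32.5 CPM (log2 fold change 1.24, adjusted p = 0.0211 with the block by edgeR). *Tnf* itself had the largest log2 fold change of the list, 1.82, but with a standard error of 0.86 and an adjusted p of 0.693 by edgeR (0.0826 with the block): it had 9.17 CPM without and 39.3 CPM with TNF in mouse 1 and 4.09 and 7.43 CPM in mouse 2. Without the IL4+IL13+TNF cells of mouse 1 its log2 fold change was 0.16, so its place in the list rests on that sum. None of the 3 genes for the linear ubiquitin ligase, the 4 of the TAK1 complex, the 5 deubiquitinases and brakes, the 3 for cell death and the 5 JNK kinases passed the threshold in either edgeR fit. With 0.00587% and 3.82% of all tested genes called in these fits, 0 calls in such short lists are no finding. With the block, 3 deubiquitinases and brakes, 2 cell death genes and 1 JNK kinase had an unadjusted p under 0.05, as did 21.4% of all tested genes. The linear ubiquitin and TAK1 lists had 0.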

How the data were processed

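Smart-seq2 libraries of single BMDMs were analysed from 1524 wells whose title gives the treatment, a number 1 or 2 (taken as the mouse), the plate and the well. The authors deposited raw counts of fragments per gene and well, with no normalization and no well removed: per the paper's methods and the processing notes, reads were demultiplexed with bcl2fastq 2.19.1, aligned to mm10 with gsnap, and uniquely mapped fragments were counted on Ensembl 98 genes by featureCounts 1.6.3 without strand. There are no molecular identifiers, so intervals cover counting error only. The 92 spike-in rows were left out of totals, and 8 columns that match no sample were not used.

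Wells more than 3 median absolute deviations below their plate's median in log total or log genes, or as far above in mitochondrial or spike-in share, were removed (138 wells). No doublet caller was run, since single cells were sorted into wells. Counts were summed per mouse and treatment (162260282 to 179757666 fragments) and tested with edgeR 4.0.16 in R 4.3.3 (glmQLFit, glmQLFTest, TMM, threshold 0.05) over genes found in at least 5% of cells of either treatment. Standard errors were derived from the F statistic. Log2 ratios by plate and mouse use CPM with 0.5 added. Alternatives were the mouse as a block, DESeq2 1.42.0, limma 3.58.1 on log2(CPM + 1), library size scaling, other cell and gene filters and left-out sums. The fits were tested first on simulated counts. The number was taken to pair the samples, since by their titles the samples of both treatments with 1 number share plates; deviations from the treatment means correlated with r = 0.568 over 17034 genes. Cells thinned to 339000 fragments gave shares (95% Clopper-Pearson intervals) and correlations, with Python 3.11.15 and scipy 1.17.1.

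The members and lists were chosen with earlier results of these data known. Named were all 10 members, *Clec4e*, genes of the wider list past the threshold in either edgeR fit or among its 3 largest log2 fold changes, and the 5 genes most like each receptor.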

Additional observations from a re-analysis of the deposited data

Results flagged for a closer look

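3 wells labelled IL4+IL13 without a mouse number, 1 each on plates 3, 4 and 5, entered no comparison, and their values lay above every IL4+IL13 plate sum for *Traf1*, *Birc3*, *Tnfaip3* and *Clec4e*. Here single wells are set beside sums over many cells. The 90th percentile of single IL4+IL13 cells in mice 1 and 2 was 63.4 and 26.2 CPM for *Traf1* and 101 and 217 CPM for *Birc3*. For *Tnfaip3* it was 4.8 and 36.3 CPM, and for *Clec4e* 67.6 and 13.2 CPM. All 3 wells lay between the values of the mice for *Traf1* and *Birc3*. They lay above both for *Clec4e*, as did the wells of plates 3 and 4 for *Tnfaip3*. The highest single IL4+IL13 cells had 302 and 569 CPM of *Tnfaip3* and 562 and 692 CPM of *Clec4e*. *Traf1* had 50.1, 33.8 and 34.4 CPM in the wells of plates 3, 4 and 5, where the highest plate sum with IL4+IL13 was 18.6 CPM. For *Birc3* the wells had 150.0, 141.0 and 103.0 CPM against 57.2 CPM, and for *Tnfaip3* 46.5, 84.5 and 22.9 CPM against 16.5 CPM. *Clec4e* stood at 279.0, 603.0 and 103.0 CPM against 22 CPM. The wells held 279461, 354874 and 87198 fragments and 10802, 11121 and 8314 detected genes. Kept cells, with a median of 472319 fragments, had a median of 7874 and 7431 genes without TNF (mice 1 and 2) and 8161 and 7859 with it. The wells lie in the plate rows used for IL4+IL13+TNF cells, and the labels do not say whether a well held 1 cell. What the wells contain was not tested.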

How the results depend on the processing

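With treatment only, edgeR called 1 gene of 17034, *Clec4e* (1380 at an unadjusted p under 0.05); the replicate block by mouse called 651, DESeq2 598, limma on mean CPM per cell 0 (1532 at an unadjusted p under 0.05), and leaving out 1 sum in turn 4 to 30, most of them without IL4+IL13+TNF replicate 1. Of the 10 genes, the block called 3 and DESeq2 4, and every other alternative without the block called 0. With the block the log2 fold changes were 2.31 for *Traf1*, 1.81 for *Birc3* and 2.43 for *Tnfaip3*; DESeq2 gave 2.32, 1.74 and 2.36 and 1.12 for *Traf2*. Leaving out the deepest well (6122892 fragments, an alternative chosen after seeing the data) with the block gave 2.29, 1.84 and 2.40, with 715 genes and 3 of the 10 called. The block changed the calls of those 3 and of *Adam17*, *Rhbdf2*, *Traf3*, *Ikbke* and *Tank*, and no other call named in the text. *Birc2* reversed to -2.91e-03 with library size in place of TMM, which moved the median of all genes to −0.089. The share of cells with *Tradd* ranged from −0.906 to 2.8 points over mice and reversed without replicate 2. With at least 5 fragments in place of 1, or with no cell filter, the shares of the 10 genes kept their sign except as given here. Among cells with a receptor fragment the mean correlation of *Tnfrsf1a* with the response score was 0.092 in place of 0.204. *Clec4e* lost its call in limma (adjusted p = 0.0765). With 2 mice, no exact permutation test could pass the threshold. Thinning and a fixed depth limit shares to transcripts above about 1 fragment, 2.95 CPM.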
